A study of Mus musculus with 24 samples.

Results

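The signalling lymphocytic activation molecule (SLAM) genes are described here: the receptors Slamf1, Slamf6, Slamf7, Slamf9, Ly9, Cd244a and Cd84, the ligand Cd48, and the adaptor Sh2d1a. These 9 genes were chosen by name, out of 54446 Ensembl genes in the count table, and all 9 were found. Splenic CD4+ T cells came from 6 mice, 3 labelled wild type (WT, C57BL6; numbered 1, 3 and 4) and 3 labelled Aim2-/- (on the same C57BL6 background; numbered 1, 2 and 4). Cells of each mouse were harvested without stimulation (0 h) or after 3, 6 or 24 h with anti-CD3 and anti-CD28 antibodies (the receptor complex and the costimulatory molecule of T cells), giving 24 mRNA libraries and 3 libraries in each of 8 groups. The ages and sexes of the mice are not given in the labels, and the cells were enriched by removing other cell types with antibodies, so other leukocytes can remain.

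SLAM receptors are immunoglobulin-like surface proteins of blood cells. Most of them bind a copy of themselves on a neighbouring cell, whereas CD244 binds CD48, which is held in the membrane by a lipid anchor. The tails of SLAMF1, SLAMF6, LY9, CD84 and CD244 recruit SAP, the small adaptor encoded by Sh2d1a, which brings in the kinase FYN. SAP is needed by CD4+ T cells for lasting contact with B cells and for the development of NKT cells, and its loss in people causes X-linked lymphoproliferative disease. SLAMF9 has a short tail without SAP-binding motifs and is known mainly from myeloid cells.

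In the GENCODE annotation of GRCm38, 8 of the 9 genes lie on chromosome 1 in the order Cd244a, Ly9, Slamf7, Cd48, Slamf1, Cd84, Slamf6 and Slamf9. The gene nearest to Aim2 is Slamf9 (chr1:172475358-172478575, plus strand), and the farthest is Cd244a, and all 8 start before Aim2 and within 2 Mb of it. Sh2d1a lies on chromosome X (chrX:42502453-42529330, plus strand). The difference between the genotypes can therefore include, beside the targeted gene, the chromosome segment around it. The gene and the segment cannot be told apart with these groups. The strain that this segment came from is not given in the sources used here, and whether its sequence differs between the groups was not tested. No source used here states the strand setting of the read counting. Cd244a overlaps Ly9 on the opposite strand, and Slamf6, Slamf7 and Sh2d1a each overlap another gene on the opposite strand, so their values carry that uncertainty. On the same strand Cd48 overlaps Gm37010 and Slamf7 overlaps Mir7683.

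The targeted gene was examined first. Without stimulation Aim2 stood at 75.0 (WT 3) and 67.5 (WT 4) CPM, the counts scaled to a common library size of 1e+06, and at 15.7, 20.1 and 19.0 CPM in Aim2-/- mice 1, 2 and 4. In the mouse labelled WT 1 the level was 21.5 CPM before stimulation and 5.57 CPM after 24 h, near the Aim2-/- values and far from the other WT mice. Its Aim2 level was nearer to the Aim2-/- mean at 4 of 4 times, so it goes against its label, and it is called the mouse labelled WT 1 or, in lists of values, WT 1. The genotype calls of members at each time are given below with and without this mouse, and other genotype values only in part. With it, Aim2-/- against WT did not pass the threshold for Aim2 itself at 0 h (log2 fold -1.58, adjusted p = 0.0794), and without it the log2 fold was -1.96 (adjusted p = 6.71e-07). Among the SLAM genes, the mouse labelled WT 1 was nearer to the Aim2-/- mean at 4 of 4 times for Slamf6 and Ly9, at 3 for Cd84 and Sh2d1a, at 2 for Slamf1, Slamf7 and Cd48, at 1 for Cd244a and at 0 for Slamf9. For Ly9 it lay above both group means at every time, and these were only 0.03 to 0.10 apart on the log2 scale. For Slamf6 at 0 h it also lay above both, by 0.86 (other WT) and 0.44 (Aim2-/-). In such cases the tally does not tell which group the mouse resembled, and it was not made over all genes.

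The libraries held 19715161 to 21627018 counts, and 3 counts, the floor used here, are 0.150 CPM in the 0 h library of the mouse labelled WT 1. The summed level of 8 CD4+ T cell markers, CD3 chains and Cd4 among them, was 4665 to 4872 CPM in WT and 4805 to 5066 CPM in Aim2-/- libraries at 0 h. Markers of other cells were present, and at 0 h the sums of the basophil, plasma cell, myeloid, NK, B cell and plasmacytoid dendritic cell lists were higher in every Aim2-/- library, whereas the erythroid and CD8 sums of the genotypes overlapped. The sum of 8 basophil and granulocyte precursor genes was 32.3 to 37.0 CPM in WT and 163 to 343 CPM in Aim2-/- libraries at 0 h, and all 8 genes were higher in every Aim2-/- library than in every WT library, against 14.1% of all tested genes. The sum of 4 plasma cell genes stood at 55.7 CPM for WT 3 and 42.0 CPM for WT 4, at 167 CPM for the mouse labelled WT 1 and at 379 to 744 CPM for the Aim2-/- mice. Myeloid genes (8, Lyz2 and Csf1r among them) summed to 32.0 to 52.7 CPM in WT and 101 to 330 CPM in Aim2-/- libraries, and 6 of 8 did not overlap. NK cell genes (6) summed to 45.4 to 66.1 and 109 to 129 CPM, where only Eomes did not overlap, and B cell genes (8) to 11.1 to 15.1 and 17.8 to 49.7 CPM, where 3 did not overlap. Erythroid genes (6) summed to 7.71 to 71.8 CPM in WT and 21.1 to 337 CPM in Aim2-/- libraries with 1 not overlapping, and the 2 CD8 genes to 9.77 to 11.4 and 8.12 to 10.9 CPM with 0. The list of 6 plasmacytoid dendritic cell genes summed to 27.5 to 38.3 and 41.4 to 85.9 CPM at 0 h with 4 not overlapping, and was carried at 24 h by Irf8, which activated T cells also express (712 to 726 CPM in WT), while the defining marker Siglech was at most 1.40 CPM at 0 h.

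**Figure D1:**
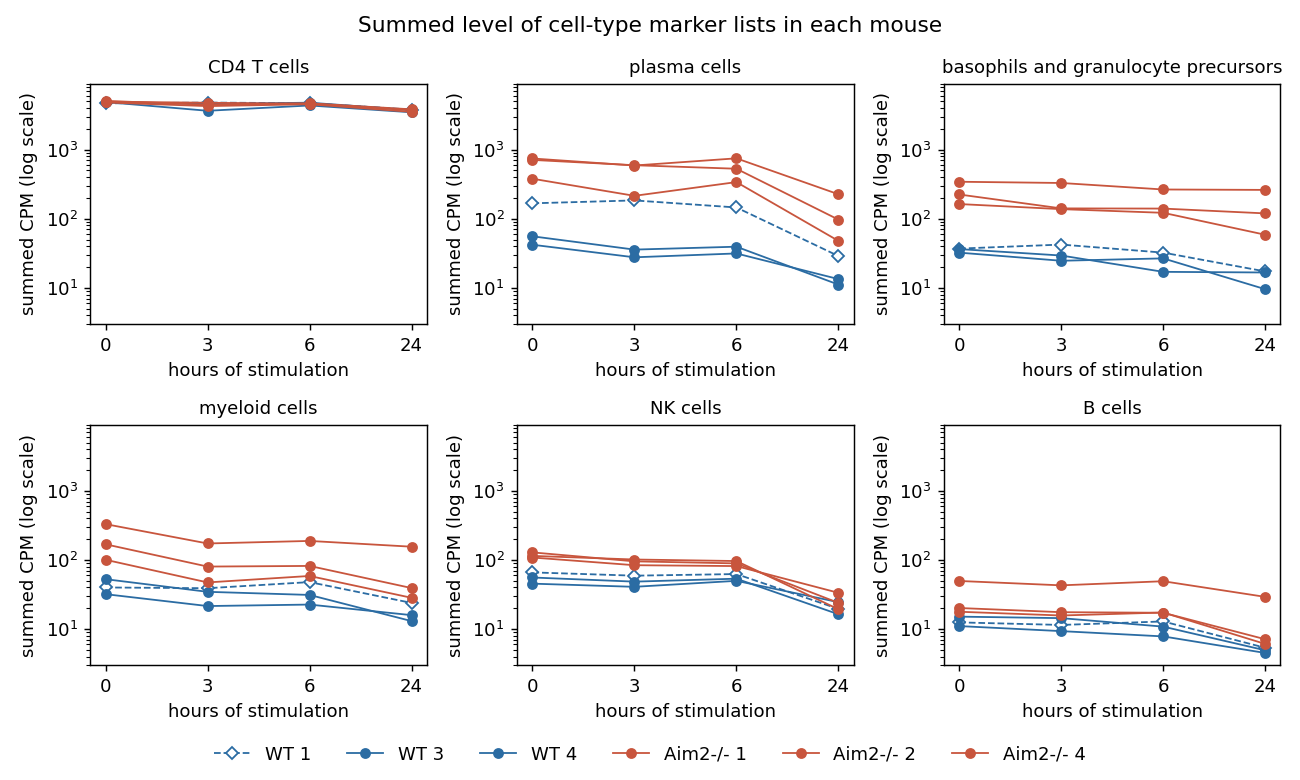
Summed CPM (log scale, same range in every panel) of 6 marker lists against hours of stimulation (times evenly spaced), 1 line per mouse, WT in blue, Aim2-/- in red and the mouse labelled WT 1 dashed with open diamonds. The CD4 T cell sums of the genotypes overlapped at every time, whereas the plasma cell sums at 0 h did not (42.0 to 167 CPM for WT, 379 to 744 CPM for Aim2-/- mice).

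Per kilobase of exon and without stimulation, Cd48 was the most abundant member in WT cells at 57.2 CPM per kb (range 54.4 to 59.1). Ly9 followed at 35.0 CPM per kb, apart from Cd48 and from the next gene. Slamf6 (17.6 CPM per kb), Slamf1 (14.6), Sh2d1a (11.9) and Cd84 (11.6) came next, and each overlapped its neighbour in the order over the 3 mice. Slamf7 had 3.25 CPM per kb, Cd244a 0.118 and Slamf9 0. The Aim2-/- cells had the same order down to Slamf7, and there Slamf9 (0.919 CPM per kb) stood above Cd244a (0.373) with ranges that did not overlap (0.750 to 1.01 against 0.131 to 0.745). At 6 h, Slamf1 had moved up to 57.0 CPM per kb in WT cells, where it overlapped Ly9 (55.6), and stood at 30.4 CPM per kb in Aim2-/- cells, below Ly9 (52.3) with no overlap.

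**Figure D2:**
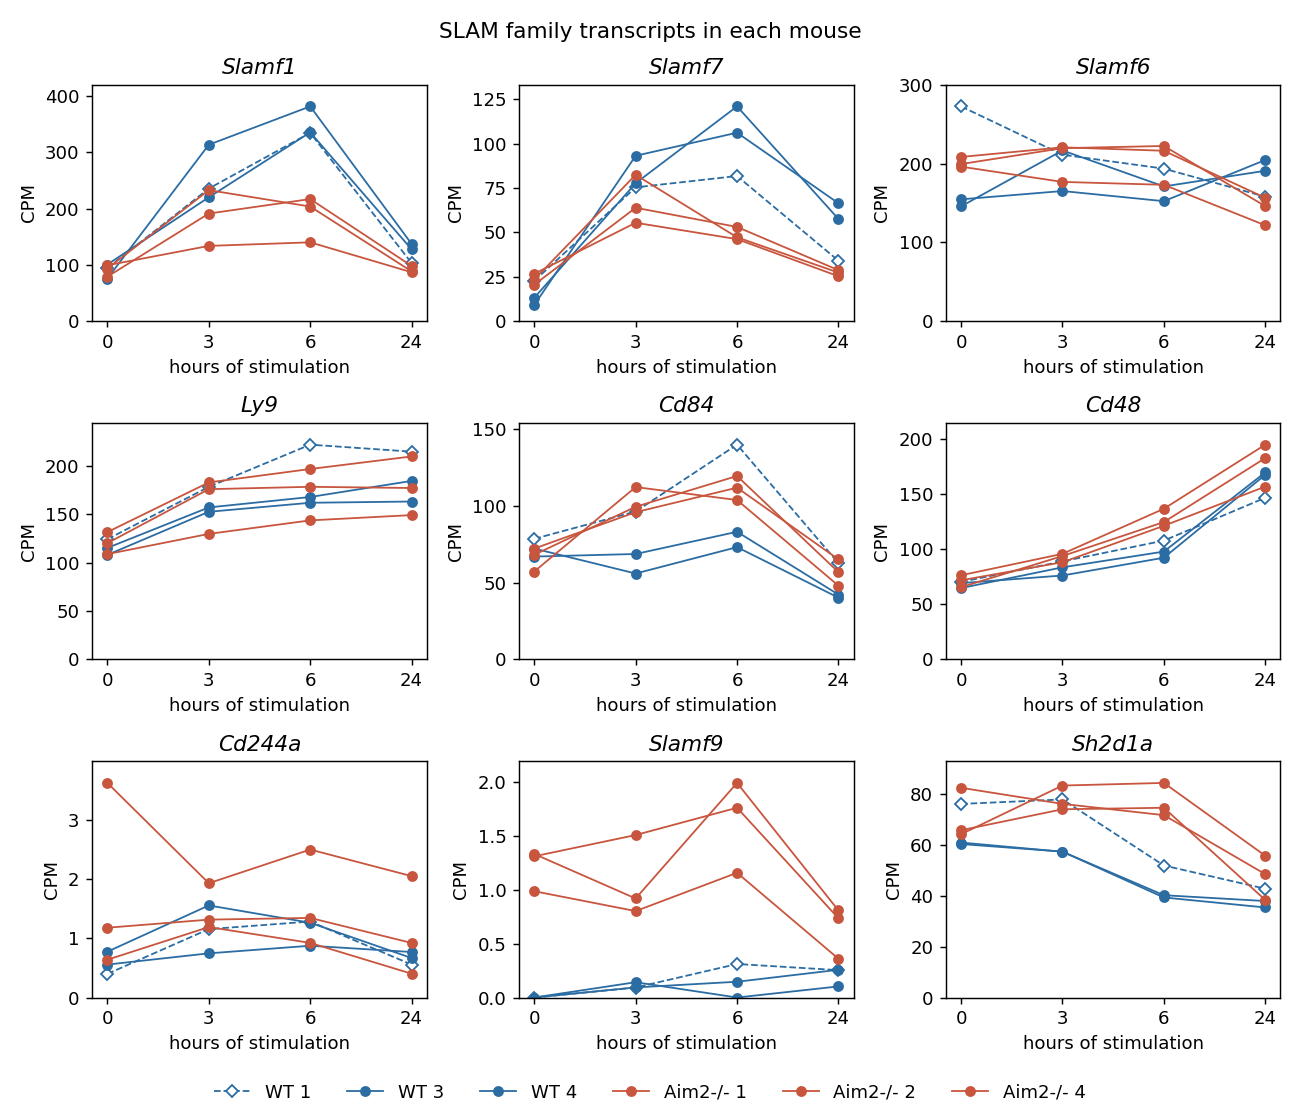
CPM of each of the 9 genes (axis from 0) against hours of stimulation (times evenly spaced), 1 line per mouse, WT in blue, Aim2-/- in red and the mouse labelled WT 1 dashed with open diamonds. Slamf1 peaked at 335 to 382 CPM at 6 h in the WT mice and reached 140 to 217 CPM in the Aim2-/- mice, and Slamf9 lay at 0 CPM in WT and at 0.985 to 1.33 CPM in Aim2-/- cells at 0 h.

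The first question was how the SLAM genes responded to stimulation in each genotype. In WT cells Slamf1, Slamf7, Ly9 and Cd48 rose at 3 h, where 32.6% of the 15325 tested genes passed an adjusted p of 0.05 (16.2% rose and 16.4% fell). They also rose at 6 h, where 51.1% of all tested genes passed (26.4% rose and 24.8% fell), and at 24 h, where 71.4% passed (36.6% and 34.8%), while Sh2d1a fell at 6 and 24 h and Cd84 fell at 24 h. Counting Slamf9, which lay near the floor of detection in WT cells and passed the count filter only through its Aim2-/- libraries, 5 of 9 rose and 0 fell at 3 h, 5 rose and 1 fell at 6 h, and 5 rose and 2 fell at 24 h. In Aim2-/- cells 5 of 9 rose and 0 fell at 3 and at 6 h, in both cases Slamf1, Slamf7, Ly9, Cd48 and Cd84. Of all tested genes 30.7% passed at 3 h (16.1% rose and 14.6% fell) and 51.2% at 6 h (28.5% and 22.7%). At 24 h in Aim2-/- cells 2 rose (Ly9 and Cd48) and 2 fell (Sh2d1a and Slamf6), where 70.3% of all tested genes passed (36.8% rose and 33.5% fell). The median log2 fold of the 9 members in WT cells was 0.49 at 3 h, 0.67 at 6 h and 0.44 at 24 h, where that of all tested genes was 0.02, 0.02 and -0.01. In Aim2-/- cells it was 0.38, 0.53 and -0.22, where that of all tested genes was 0.02, 0.08 and 0.03. All folds and adjusted p-values are from edgeR's quasi-likelihood test on 24 libraries, adjusted over all tested genes within a comparison. The WT medians include Slamf9, whose WT libraries at 0 h were all at 0 counts, and with Slamf9 at its floor they were 0.28, 0.55 and 0.42.

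**Figure D3:**
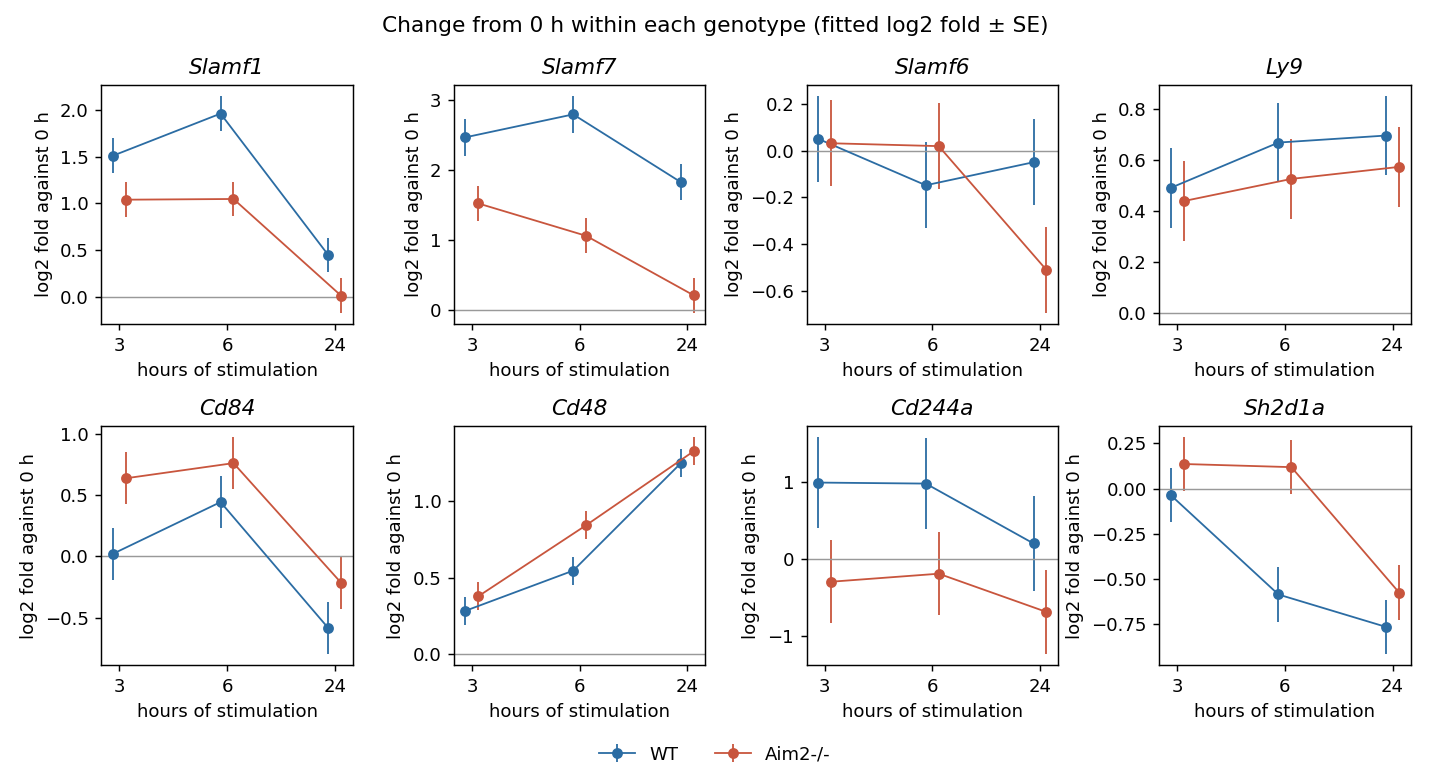
Fitted log2 fold against 0 h (points) with its standard error (bars) at 3, 6 and 24 h (evenly spaced, each panel with its own vertical range) for 8 genes, WT in blue and Aim2-/- in red. Slamf9 is left out because its WT libraries had 0 counts at 0 h. At 6 h Slamf7 stood at 2.79 in WT and 1.06 in Aim2-/- cells, and Sh2d1a at -0.59 and 0.12.

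Slamf1 encodes SLAM itself, also called CD150, a self-binding receptor that signals through SAP. In mice WT 1, WT 3 and WT 4 it went from 94.0, 75.6 and 101 CPM at 0 h to 236, 314 and 220 CPM at 3 h and 335, 382 and 336 CPM at 6 h, and was back at 103, 137 and 128 CPM at 24 h. In Aim2-/- mice 1, 2 and 4 it went from 99.2, 78.9 and 93.4 CPM to 134, 191 and 233 CPM at 3 h and 140, 217 and 204 CPM at 6 h, with 86.8, 98.0 and 88.3 CPM at 24 h. All 6 mice rose at 3 and 6 h, and at 6 h the groups did not overlap, with every Aim2-/- value below every WT value, as for 17% of all tested genes. The WT log2 folds were 1.51 ± 0.19 (SE) at 3 h (adjusted p = 3.01e-06), 1.96 ± 0.19 at 6 h (adjusted p = 3.02e-08) and 0.44 ± 0.19 at 24 h (adjusted p = 0.0378). The last value lost its call without WT 3 (log2 fold 0.19, adjusted p = 0.474) or WT 4 (0.46, adjusted p = 0.109). The Aim2-/- log2 folds were 1.04 ± 0.19 at 3 h (adjusted p = 0.00024) and 1.05 ± 0.19 at 6 h (adjusted p = 8.22e-05), and no test of the 24 h value passed the threshold.

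Slamf7, also called CRACC, is a self-binding receptor of activated lymphocytes, NK cells and plasma cells that uses the adaptor EAT-2 in place of SAP. In WT mice 1, 3 and 4 it rose from 22.6, 8.99 and 13.0 CPM at 0 h to 75.4, 93.2 and 77.7 CPM at 3 h and 81.8, 106 and 121 CPM at 6 h, and stood at 34.0, 66.4 and 57.5 CPM at 24 h. In Aim2-/- mice 1, 2 and 4 it rose from 26.6, 20.4 and 23.4 CPM to 55.4, 63.9 and 82.4 CPM at 3 h, and then stood at 46.2, 53.1 and 47.2 CPM at 6 h and 25.2, 28.7 and 27.3 CPM at 24 h. The highest level of each mouse was at 6 h in all 3 WT mice and at 3 h in all 3 Aim2-/- mice, and the mouse labelled WT 1 started inside the Aim2-/- range. The WT log2 folds were 2.46 ± 0.26 at 3 h (adjusted p = 4.31e-07), 2.79 ± 0.27 at 6 h (adjusted p = 2.23e-08) and 1.82 ± 0.26 at 24 h (adjusted p = 2.17e-06). When the mouse labelled WT 1 was left out they were 2.95, 3.37 and 2.49. The Aim2-/- log2 folds were 1.52 ± 0.25 at 3 h (adjusted p = 0.00011) and 1.06 ± 0.25 at 6 h (adjusted p = 0.00141).

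Slamf1 and Slamf7 shared a course of early rise and later fall, so the 250 bases before their RefSeq start sites (GRCm38.p6 coordinates) are shown, with those of Cd48, which kept rising to 24 h, for comparison. Capitals mark matches, on either strand, to GGAAA, the core of NFAT sites (its reverse complement is also in capitals), or to the AP-1 motif TGANTCA, which reads the same on both strands. The Slamf7 window lies wholly inside the longer GENCODE gene (chr1:171632403-171653035, minus strand), so it is not before the gene start of that annotation.
Slamf1, chr1:171766882-171767131, plus strand: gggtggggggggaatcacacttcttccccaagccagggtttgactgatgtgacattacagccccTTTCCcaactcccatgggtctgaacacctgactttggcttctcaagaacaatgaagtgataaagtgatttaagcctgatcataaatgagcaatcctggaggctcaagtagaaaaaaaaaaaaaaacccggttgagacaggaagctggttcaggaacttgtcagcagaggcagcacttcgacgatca
Slamf7, chr1:171649000-171649249, minus strand: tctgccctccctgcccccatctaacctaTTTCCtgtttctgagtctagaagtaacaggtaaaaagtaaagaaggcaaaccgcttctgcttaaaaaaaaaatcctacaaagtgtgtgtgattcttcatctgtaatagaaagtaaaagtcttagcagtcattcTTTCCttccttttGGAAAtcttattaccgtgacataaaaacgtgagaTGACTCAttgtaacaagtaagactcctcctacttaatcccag
Cd48, chr1:171681742-171681991, plus strand: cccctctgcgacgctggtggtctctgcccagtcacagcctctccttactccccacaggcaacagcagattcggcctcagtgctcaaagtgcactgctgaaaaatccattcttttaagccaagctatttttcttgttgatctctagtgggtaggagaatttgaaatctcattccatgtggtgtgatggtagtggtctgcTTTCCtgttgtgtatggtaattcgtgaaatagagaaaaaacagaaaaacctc
Slamf7 held 3 NFAT core matches and 1 AP-1 match, whereas Slamf1 and Cd48 each held 1 NFAT core match and 0 AP-1 matches. A window of this length held the NFAT core in 55.6% and the AP-1 motif in 6.75% of 32851 RefSeq promoters. Of the other members in that table, Cd84 and Cd244a each held 1 of both, Slamf9 held 1 NFAT core match only and Slamf6 held 0. On both strands 3 further motifs were searched, an NF-kB motif that contains the letters of the NFAT core (0.356% of promoters), a paired interferon response motif (2.98%) and the octamer ATGCAAAT (1.60%), and 0 matches were found in these 7 windows. A match is only a run of letters, and binding was not measured.

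Slamf6, a self-binding receptor that recruits SAP, passed in 1 stimulation comparison, at 24 h in Aim2-/- cells. At 0 h it had 273, 155 and 146 CPM in WT mice 1, 3 and 4 and 200, 209 and 196 CPM in Aim2-/- mice 1, 2 and 4, and at 24 h 158, 205 and 191 CPM and 146, 157 and 122 CPM. The mouse labelled WT 1 was the highest of all 6 mice at 0 h and the lowest WT mouse at 24 h. In Aim2-/- cells Slamf6 fell at 24 h (log2 fold -0.51 ± 0.18, adjusted p = 0.0184), and without Aim2-/- mouse 1, 2 or 4 the adjusted p was 0.0595, 0.0517 or 0.108. In WT cells the 24 h log2 fold was -0.05 (adjusted p = 0.819), and 0.40 (adjusted p = 0.032) without the mouse labelled WT 1.

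Ly9, also called CD229, is a self-binding SAP-recruiting receptor. It went from 124, 115 and 108 CPM at 0 h to 222, 168 and 162 CPM at 6 h and 215, 184 and 163 CPM at 24 h in WT mice 1, 3 and 4. In Aim2-/- mice 1, 2 and 4 it went from 109, 131 and 120 CPM to 144, 197 and 178 CPM at 6 h and 149, 210 and 177 CPM at 24 h. Every mouse rose, and the genotypes overlapped at every time. The log2 fold at 24 h was 0.70 ± 0.16 in WT (adjusted p = 0.000449) and 0.57 ± 0.16 in Aim2-/- cells (adjusted p = 0.00263). The 3 h calls (log2 fold 0.49 in WT, adjusted p = 0.0188; 0.44 in Aim2-/-, adjusted p = 0.0368) were lost when single mice were left out, any of the WT mice in the first case (adjusted p 0.0631 to 0.131) and WT 3, WT 4, Aim2-/- 2 or Aim2-/- 4 in the second (0.064 to 0.243). Ly9 in Aim2-/- cells at 6 h (log2 fold 0.53, adjusted p = 0.00744) lost its call without Aim2-/- 4 (adjusted p = 0.0671).

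Cd84 encodes a further self-binding, SAP-recruiting receptor. It had 78.5, 66.9 and 72.2 CPM at 0 h, 96.3, 68.6 and 55.9 CPM at 3 h, 140, 83.1 and 73.1 CPM at 6 h and 62.6, 42.1 and 40.1 CPM at 24 h in WT mice 1, 3 and 4. In Aim2-/- mice 1, 2 and 4 it had 72.2, 68.1 and 57.2 CPM at 0 h, 95.9, 99.4 and 112 CPM at 3 h, 112, 119 and 104 CPM at 6 h and 65.1, 56.8 and 48.0 CPM at 24 h. At 6 h the mouse labelled WT 1 was the highest of all, above the Aim2-/- range, while WT 3 and WT 4 were below it. In Aim2-/- cells Cd84 rose by log2 0.64 ± 0.21 at 3 h (adjusted p = 0.027) and 0.76 ± 0.21 at 6 h (adjusted p = 0.00506). The 3 h call was lost without Aim2-/- 1, 2 or 4 (adjusted p = 0.0561, 0.0987 and 0.262). In WT cells it fell at 24 h (log2 fold -0.59 ± 0.22, adjusted p = 0.0194), with adjusted p = 0.0588 without WT 3 and 0.0571 without WT 4. The WT 6 h log2 fold of 0.44 did not pass (adjusted p = 0.088) but did with the mouse as a block (0.39, adjusted p = 0.00857; 0.00857 to 0.378 over the alternatives).

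Cd48, the ligand of CD244 and of CD2, was the member that rose most steadily. In WT mice 1, 3 and 4 it went from 70.3, 69.2 and 64.7 CPM at 0 h to 88.9, 76.1 and 83.5 CPM at 3 h, 108, 92.2 and 97.8 CPM at 6 h and 147, 168 and 170 CPM at 24 h. In Aim2-/- mice 1, 2 and 4 it went from 65.5, 71.7 and 76.3 CPM to 93.8, 88.1 and 95.8 CPM at 3 h, 125, 121 and 137 CPM at 6 h and 183, 157 and 195 CPM at 24 h. Each of the 6 mice rose at each step. The log2 fold at 24 h was 1.25 ± 0.09 in WT (adjusted p = 1.06e-10) and 1.32 ± 0.09 in Aim2-/- cells (adjusted p = 5.78e-11). The WT call at 3 h (log2 fold 0.28, adjusted p = 0.0202) was lost without any of the WT mice (0.0566 to 0.255), and the Aim2-/- call at 3 h (0.38, adjusted p = 0.0031) without Aim2-/- 1 (adjusted p = 0.0598).

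Cd244a encodes the receptor for CD48, best known from NK cells and CD8+ T cells. It was barely detected, at 8 to 33 counts in the WT libraries and 8 to 75 counts in the Aim2-/- libraries. Aim2-/- mouse 1 had 3.63, 1.93, 2.50 and 2.05 CPM at 0, 3, 6 and 24 h, the highest of the 6 mice at each time, while the other 5 mice stayed between 0.400 and 1.56 CPM. That mouse also had the highest sums of B cell, myeloid, basophil and erythroid markers at every time. Its NK cell sum was the lowest of the 3 Aim2-/- mice at 0, 3 and 6 h (109, 84.0 and 81.6 CPM). That sum was mostly Eomes (72.8 to 99.4 CPM in Aim2-/- libraries at 0 h), so it says little about the other NK genes. No other gene of the NK list exceeded 13.8 CPM there. The part of any of these markers' cells in the Cd244a level was not tested. No main comparison called Cd244a, and the WT folds at 3 h (log2 0.99, adjusted p = 0.218) and 6 h (0.98, adjusted p = 0.177) passed with the mouse as a block (0.98, adjusted p = 0.0375, and 0.99, adjusted p = 0.0265; highest over the alternatives 0.536 and 0.522).

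Sh2d1a encodes SAP. In WT mice 1, 3 and 4 it had 76.0, 60.3 and 60.9 CPM at 0 h, 77.8, 57.3 and 57.2 CPM at 3 h, 51.8, 39.3 and 40.2 CPM at 6 h and 42.7, 35.4 and 37.9 CPM at 24 h. In Aim2-/- mice 1, 2 and 4 it had 64.1, 65.7 and 82.4 CPM at 0 h, 83.2, 73.9 and 76.0 CPM at 3 h, 84.3, 74.5 and 71.6 CPM at 6 h and 55.7, 38.3 and 48.4 CPM at 24 h. All 3 WT mice were lower at 6 h than at 0 h, and the 3 Aim2-/- mice were not until 24 h, apart from Aim2-/- 4, which was lower already at 3 h. In WT cells it fell by 0.59 on the log2 scale at 6 h (SE 0.15, adjusted p = 0.00258) and by 0.77 at 24 h (SE 0.15, adjusted p = 0.000128). In Aim2-/- cells it fell by 0.58 at 24 h (SE 0.15, adjusted p = 0.00198).

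Slamf9 was at the edge of detection. WT mice 1, 3 and 4 had 0, 0 and 0 counts at 0 h, 2, 3 and 2 at 3 h, 7, 0 and 3 at 6 h, and 5, 2 and 5 at 24 h. Aim2-/- mice 1, 2 and 4 had 27, 27 and 20 counts at 0 h, 35, 20 and 17 at 3 h, 40, 43 and 24 at 6 h, and 15, 16 and 7 at 24 h. Every Aim2-/- library was above every WT library at its time, as 14.1%, 7.8%, 18.6% and 11.1% of all tested genes were at 0, 3, 6 and 24 h. With at most 7 counts in a WT library, Slamf9 passed the count filter only through its Aim2-/- libraries, so the lack of overlap and the calls of Slamf9 are given as a description. The WT changes with stimulation passed the test at all 3 times, but the WT mean at 24 h was only 1.34 times the level that 3 counts give at 0 h, so no fold is given for them.

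The second question was whether the genotypes differed at each time. At 0 h 0 of the other 8 members passed beside Slamf9, where 5.23% of all tested genes did (3.24% higher and 1.99% lower in Aim2-/- cells). At 3 h again 0 of the 8 passed beside Slamf9, where 0.294% of all tested genes did (0.254% higher and 0.0392% lower). Nothing is read from the Slamf9 calls against these shares, since its Aim2-/- libraries decided that it was tested. At 6 h 4 of the other 8 passed beside Slamf9, 2 higher in Aim2-/- cells (Sh2d1a and Cd48) and 2 lower (Slamf1 and Slamf7), where 15.8% of all tested genes passed (8.78% higher and 7.01% lower). At 24 h 0 of 9 passed with edgeR, against 0.666% of all tested genes (0.659% higher and 0.00653% lower). An unadjusted p under 0.05 was reached there by 4 members and by 3134 of the 15325 tested genes. DESeq2 called 1 member at 24 h (Slamf7, where 5.95% of all genes passed) and limma-voom 0. Leaving out the mouse labelled WT 1 gave 2, 2, 6 and 1 of the 9 members, Slamf9 included, where 5.77%, 2.71%, 11.4% and 1.05% of all tested genes passed. The median log2 fold of the members at 6 h was 0.24, and that of all tested genes was 0.05. These genotype tests took the spread from all 24 libraries as if independent, although libraries of a mouse deviated together. Their p-values can therefore be too small. When only the libraries compared were fitted, 2.36%, 0.0147%, 7.17% and 0% of all tested genes passed at 0, 3, 6 and 24 h.

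**Figure D4:**
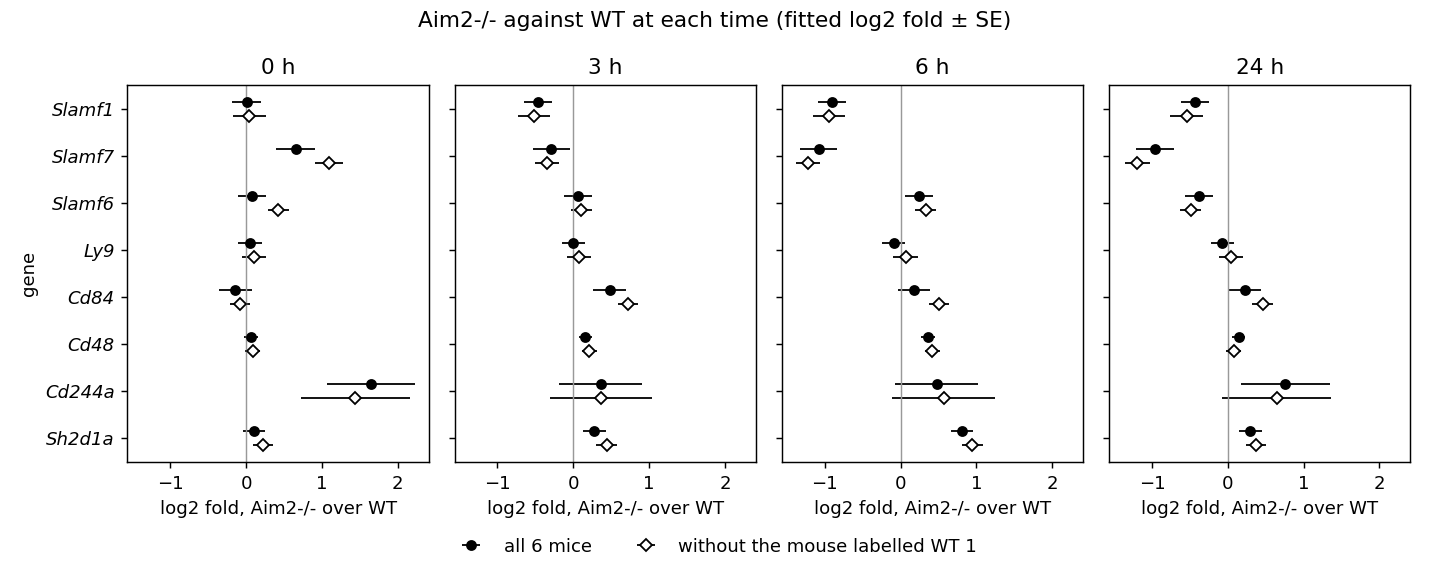
Fitted log2 fold of Aim2-/- over WT (points) with its standard error (bars) for 8 genes at 0, 3, 6 and 24 h, with all 6 mice (filled circles) and without the mouse labelled WT 1 (open diamonds). Slamf9 is left out because its WT libraries had 0 counts at 0 h. At 6 h Slamf1 (-0.91) and Slamf7 (-1.08) were lower and Sh2d1a (0.81) and Cd48 (0.36) higher in Aim2-/- cells.

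Slamf1 at 6 h averaged 351 ± 26.9 CPM (SD, n = 3) in WT and 187 ± 41.2 CPM in Aim2-/- cells, a log2 fold of -0.91 ± 0.19 (adjusted p = 0.00713). It remained past the threshold without the mouse labelled WT 1 (-0.94, adjusted p = 0.015) and under all 14 alternatives, with adjusted p at most 0.0499. At 0 h the genotypes overlapped.

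Slamf7 at 6 h averaged 103 ± 19.8 CPM in WT and 48.8 ± 3.71 CPM in Aim2-/- cells, a log2 fold of -1.08 ± 0.25 (adjusted p = 0.012). Without the mouse labelled WT 1 it was -1.22 (adjusted p = 0.000692), and without WT 4, Aim2-/- 1 or Aim2-/- 4 the call was lost (adjusted p = 0.0713, 0.0705 and 0.0585). At 24 h the log2 fold was -0.96 ± 0.25 (adjusted p = 0.068), and -1.20 (adjusted p = 0.00213; 1.58e-05 to 0.458 over the alternatives) without the mouse labelled WT 1. At 0 h, before stimulation, Slamf7 stood in the opposite direction, at 0.66 ± 0.26 (adjusted p = 0.128) with all mice and 1.09 (adjusted p = 0.00314; 0.00314 to 0.466 over the alternatives) without the mouse labelled WT 1. The plasma cell sums at 0 h were lowest in WT 3 and WT 4, intermediate in the mouse labelled WT 1 and highest in the Aim2-/- mice. They were mostly Jchain (35.9 to 157 CPM in WT and 364 to 717 CPM in Aim2-/- libraries). Slamf7 in the mouse labelled WT 1 was near the Aim2-/- mean at 0 h (log2 difference -0.05). At 6 h the plasma cell sums were 31.5 to 145 CPM in WT and 339 to 747 CPM in Aim2-/- mice. The part of plasma cells in the Slamf7 difference was not tested at any time.

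Sh2d1a at 6 h averaged 43.8 ± 7.00 CPM in WT and 76.8 ± 6.63 CPM in Aim2-/- cells, a log2 fold of 0.81 ± 0.15 (adjusted p = 0.00531), and 0.95 (adjusted p = 0.00127) without the mouse labelled WT 1. The call was lost without WT 3 (0.70, adjusted p = 0.0542) or WT 4 (0.71, adjusted p = 0.0552). Cd48 at 6 h averaged 99.3 ± 7.87 CPM in WT and 128 ± 8.14 CPM in Aim2-/- cells, a log2 fold of 0.36 ± 0.09 (adjusted p = 0.0168), and 0.42 (adjusted p = 0.0172) without the mouse labelled WT 1. Its call was lost without WT 3, WT 4, Aim2-/- 1 or Aim2-/- 4 (adjusted p 0.0665 to 0.144) and under 2 other settings.

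Slamf9 was at least 7.92-fold higher in Aim2-/- than in WT cells at 0 h, taking the mean level of 3 counts per library as the WT value (adjusted p = 0.00149; 0.00161 without the mouse labelled WT 1). From the summed counts the ratio was 9.95 at 3 h (exact 95% interval 4.59 to 25.6), 10.4 at 6 h (5.46 to 22.4) and 3.11 at 24 h (1.59 to 6.53). These intervals and the floor cover counting error only. Slamf9 was tested only because its Aim2-/- libraries passed the count filter, and a minimum mean of 1 CPM removed it. Its adjusted p-values are therefore given as a description. With no filter on low counts the adjusted p at 0, 3 and 6 h was at most 0.000561. With the filter the test called 3 h (adjusted p = 0.0304; 0.0239 without the mouse labelled WT 1, and 0.096 to 0.282 without WT 3, WT 4, Aim2-/- 1 or Aim2-/- 4) and 6 h (adjusted p = 0.00484; 0.00396 without the mouse labelled WT 1, and 0.0521 without WT 4), and did not call 24 h (adjusted p = 0.148). The mouse labelled WT 1 had 0 to 7 Slamf9 counts and stood with the other WT mice at all times, unlike its Aim2 level. The basophil and granulocyte precursor genes and the myeloid genes were higher in the same Aim2-/- libraries, and their part in the Slamf9 level was not tested. In bulk libraries, fewer cells of a type and less RNA per cell cannot be told apart.

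Cd84 passed in no genotype comparison with all mice. Without the mouse labelled WT 1 it was higher in Aim2-/- cells at 3 h (log2 fold 0.72, adjusted p = 0.00948) and 6 h (0.51, adjusted p = 0.0249), where the values with it were 0.48 (adjusted p = 0.29) and 0.18 (adjusted p = 0.582). Cd244a at 0 h had a log2 fold of 1.65 ± 0.58 (adjusted p = 0.0924), and of 0.66 (adjusted p = 0.498) without Aim2-/- mouse 1. Ly9 passed in no genotype comparison under any setting. Slamf6 passed in 1, at 24 h with the mouse number as a block (log2 fold -0.53, adjusted p = 0.0257; main -0.38, adjusted p = 0.244). Slamf1 at 3 h (-0.46, adjusted p = 0.241) and 24 h (-0.43, adjusted p = 0.199) passed only with no filter on low counts (adjusted p = 0.0415 and 0.04).

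The 4 libraries of a mouse were then summed, so that each of the 6 mice counted once. With edgeR 0 of 9 members passed, against 0.0117% of 17163 tested genes. An unadjusted p under 0.05 was reached by 5 members and by 4004 of all tested genes. DESeq2 called 4 of 9, where it called 11.1% of all genes, and limma-voom 0. The log2 folds were -0.58 ± 0.10 for Slamf7 (adjusted p = 0.101), -0.56 ± 0.12 for Slamf1 (adjusted p = 0.125), 0.39 ± 0.11 for Sh2d1a (adjusted p = 0.144) and 3.28 ± 0.39 for Slamf9 (adjusted p = 0.0546). Without the mouse labelled WT 1, Slamf7 (-0.68, adjusted p = 0.0214; 5.82e-05 to 0.348 over the alternatives) and Slamf9 (adjusted p = 0.0237; 6.94e-09 to 0.235) passed. The Slamf9 call is again only a description. Without that mouse 0.854% of all tested genes passed, and leaving out Aim2-/- 2 gave 4 members where 16.7% of all tested genes passed.

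The third question was whether stimulation changed a gene by different amounts in the genotypes (a genotype by stimulation interaction). Without a block 0 of 9 members passed at 3, 6 and 24 h with edgeR. An unadjusted p under 0.05 was reached by 2, 5 and 2 members, and by 653, 2019 and 1825 of the 15325 tested genes. Of all tested genes 0% passed at 3 and 24 h and 0.0261% at 6 h. DESeq2 called 0, 3 and 1 members, where it called 0%, 2.8% and 1.57% of all genes, and limma-voom 0 at each time. The cells of all 4 times came from the same mouse, and with the mouse as a block in the model 3 members passed at 6 h and 2 at 24 h, where 4.68% and 2.77% of all tested genes passed. The rise of Slamf7 at 6 h was smaller in Aim2-/- cells by 1.73 ± 0.36 on the log2 scale, a value of -1.73 (adjusted p = 0.06), and with the mouse as a block -1.71 (adjusted p = 0.0123; 1.97e-06 to 0.622 over the alternatives). At 24 h it was -1.62 ± 0.36 (adjusted p = 0.0964), and -1.58 (adjusted p = 0.0216; 1.59e-05 to 0.961) with the block. Leaving out the mouse labelled WT 1, the Slamf7 interactions were -2.31 at 6 h (adjusted p = 0.000631) and -2.29 at 24 h (adjusted p = 0.000829). Slamf1 at 6 h had -0.92 ± 0.26 (adjusted p = 0.132), and -0.93 (adjusted p = 0.0238; 0.00385 to 0.736) with the block. Sh2d1a at 6 h had 0.70 ± 0.21 (adjusted p = 0.157), and 0.71 (adjusted p = 0.0112; 0.0112 to 0.671) with the block. Neither Slamf1 nor Sh2d1a passed without the mouse labelled WT 1 when no block was used (adjusted p = 0.218 and 0.149).

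Of 19 genes that work with SLAM receptors, 18 could be tested. In WT cells 4 rose and 3 fell at 3 h (32.6% of all tested genes changed), 5 rose and 6 fell at 6 h (51.1%), and 7 rose and 8 fell at 24 h (71.4%). In Aim2-/- cells 4 rose and 2 fell (30.7%), 6 rose and 7 fell (51.2%), and 4 rose and 7 fell (70.3%). The rises with the largest folds included Ptpn6, which encodes the phosphatase SHP-1 that SLAM tails can bind (log2 fold 2.65 in WT and 2.13 in Aim2-/- cells at 24 h), and Prkcq, the protein kinase C of the T cell synapse that SAP signalling engages (0.92 in WT and 0.86 in Aim2-/- cells at 3 h, 0.85 and 0.79 at 6 h). Csk, the kinase that restrains FYN and LCK, rose in both genotypes at 3 h (0.37 in WT and 0.34 in Aim2-/- cells) and 24 h (0.85 and 0.74). Dok2, a docking adaptor, rose in WT cells at 3 h (0.49, and 0.31 with adjusted p = 0.127 in Aim2-/- cells), and Plcg2, a phospholipase, in WT cells at 24 h (1.01, and -0.21 with adjusted p = 0.597 in Aim2-/- cells), and no interaction of a partner passed. The falls included Plcg1, the main phospholipase C of T cells (-0.62 at 3 h, -1.22 at 6 h and -1.79 at 24 h in WT, -0.45, -0.99 and -1.42 in Aim2-/- cells), and Inpp5d, the lipid phosphatase SHIP-1 (-0.40, -0.91 and -0.94 at 3, 6 and 24 h in WT, -0.58, -1.05 and -1.28 in Aim2-/- cells). Rasa1, a RAS GTPase activator, fell in both genotypes at 24 h (-1.46 in WT and -1.12 in Aim2-/- cells), Shc1, an adaptor, in both at 6 h (-0.28 and -0.42), and Fyn, the kinase that SAP recruits, in both at 24 h (-1.31 and -1.39).

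A pair of these partners had few counts. Slamf8, a short-tailed SLAM relative of myeloid cells, summed to 1 count in WT and 16 in Aim2-/- cells at 0 h and to 43 and 163 counts at 24 h, and rose at 6 and 24 h in both genotypes. Its Aim2-/- mean was 1.70 times the level of 3 counts at 0 h and 17.5 times that level at 24 h. Sh2d1b1, which encodes the EAT-2 adaptor of NK and myeloid cells, summed to 22 and 16 counts at 0 h and to 1 and 8 at 24 h, and fell in WT cells at all 3 times.

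Between the genotypes 3 of the 18 partners passed at 0 h (5.23% of all tested genes) and 2 at 6 h (15.8%), with 0 at 3 h (0.294%) and 24 h (0.666%) by edgeR. At 0 h Plcg2 (log2 fold 1.86, adjusted p = 0.0105) and the adaptor Dok1 (0.40, adjusted p = 0.032) were higher and Rasa1 (-0.48, adjusted p = 0.0403) lower in Aim2-/- cells. Plcg2 is also the phospholipase of B and myeloid cells, whose markers were higher in these libraries, and their part was not tested. At 6 h Dok1 was higher (0.56, adjusted p = 0.00499) and Fyn lower (-0.27, adjusted p = 0.0434). With the mouse labelled WT 1 left out, Plcg2 and Dok1 passed (adjusted p = 0.0118 and 0.0417 at 0 h, 0.0112 for Dok1 at 6 h), and Rasa1 (0.133) and Fyn (0.11) did not. When other single mice were left out, the adjusted p reached 0.117 for Plcg2, 0.192 for Dok1 and 0.166 for Rasa1 at 0 h, and 0.0521 for Dok1 and 0.166 for Fyn at 6 h.

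Of 11 genes of helper T cells and NKT cells that depend on SAP, 2 rose and 0 fell in WT cells at 3 h (32.6% of all tested genes changed). In Aim2-/- cells 1 rose and 1 fell at 3 h (30.7%). At 6 h 3 rose and 3 fell in WT (51.1%), and 1 rose and 4 fell in Aim2-/- cells (51.2%). At 24 h 1 rose and 9 fell in each genotype, where 36.6% of all tested genes rose and 34.8% fell in WT and 36.8% and 33.5% in Aim2-/- cells. The 24 h fold of Bcl6, the transcription factor of follicular helper cells, was -3.25 in WT and -3.37 in Aim2-/- cells on the log2 scale. Between the genotypes 1 of the 11 passed at 0 h (5.23% of all tested genes) and 1 at 6 h (15.8%), with 0 at 3 h (0.294%) and 24 h (0.666%). Pdcd1, which encodes the receptor PD-1, was higher in Aim2-/- cells at 0 h (log2 fold 1.04, adjusted p = 0.0301; 0.00141 without the mouse labelled WT 1, and up to 0.177 without WT 3). Cd40lg, the ligand through which helper cells engage B cells, was lower at 6 h (-0.99, adjusted p = 0.0056; 0.00142 to 0.0433 when single mice were left out). These 3 genes were picked after their values were seen.

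The genes closest in pattern to each member were sought by the root mean square difference of centred log2 CPM over the 24 libraries, as a description. For Slamf1 they were Tagap, Prag1 and Egr2 (0.27 to 0.29, where Slamf1 itself varied with an SD of 0.75). For Slamf7 they were Cd274, Ncoa7 and Egr2 (0.40 to 0.48, SD 0.98). Egr2, a transcription factor induced through the T cell receptor, was on both lists. For Cd48 they were Mpv17l2, Spag7 and Trappc1 (all 0.12, SD 0.51), and for Sh2d1a Ap1s2, Ssh3 and Plcb3 (0.17 to 0.19, SD 0.41). For Ly9 they were Nepro, Srp68 and Trim8 (0.15 to 0.16, SD 0.31). Relative to the member's own SD, the likeness was looser for Slamf6 (Nek7, Phtf1 and Plcl2, 0.17 to 0.19, SD 0.27) and Cd84 (F2r, Rfx5 and Rhbdf2, 0.27 to 0.28, SD 0.47). It was only slightly looser for Cd244a (Fzd7, Csf2ra and Tcf4, 0.37 to 0.41, SD 0.72). Csf2ra and Tcf4 are genes of myeloid and plasmacytoid cells.

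Within 2 Mb of Aim2 the annotation lists 134 genes, the 8 SLAM genes among them, and 52 were tested. Of these 52 genes, 3 were higher and 2 lower in Aim2-/- cells at 0 h (5.23% of all tested genes passed), 1 and 0 at 3 h (0.294%), 6 and 9 at 6 h (15.8%), and 1 and 0 at 24 h (0.666%), and 0 passed with the libraries of a mouse summed. Besides Slamf9, 4 genes passed at 2 or more times. Fcer1a, which encodes a chain of the IgE receptor and is one of the basophil markers, was higher in Aim2-/- cells at 0 h (log2 fold 3.92, adjusted p = 0.00245), 6 h (3.16, adjusted p = 0.00567) and 24 h (2.55, adjusted p = 0.0231). F11r, a junctional adhesion molecule, was higher at 0 h (1.39, adjusted p = 0.0495) and 6 h (1.40, adjusted p = 0.0313). Gm10521, which lies between Cd84 and Slamf6, was lower at 0 and 6 h (-1.43, adjusted p = 0.0398, and -1.30, adjusted p = 0.033).

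Ifi213, a member of the Ifi200 family to which Aim2 belongs, had 1.00, 51.1 and 57.6 CPM in mice WT 1, WT 3 and WT 4 at 0 h and 0.242, 0.739 and 0.935 CPM in Aim2-/- mice 1, 2 and 4. At 6 h it had 1.46, 24.6 and 30.9 CPM and 0.747, 1.39 and 1.15 CPM. The mouse labelled WT 1 was thus next to the Aim2-/- mice for Ifi213, as for Aim2, whereas for Slamf9 and F11r at 0 and 6 h it stood with WT 3 and WT 4. Ifi213 was lower in Aim2-/- cells at 0 h (log2 fold -5.83, adjusted p = 0.028) and 6 h (-4.11, adjusted p = 0.0408), and without the mouse labelled WT 1 the values were -6.40 (adjusted p = 6.71e-07) and -4.66 (adjusted p = 2.1e-05). With that mouse left out, Fcer1a passed at 0 h (adjusted p = 0.0112) and 6 h (0.0227) but not at 24 h (0.063), and F11r (0.0744 and 0.0501) and Gm10521 (0.0568 and 0.0797) passed at neither time. When other single mice were left out, the adjusted p reached 0.0399, 0.0604 and 0.3 for Fcer1a at 0, 6 and 24 h, 0.201 for F11r, 0.162 for Gm10521 and 0.178 for Ifi213.

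**Figure D5:**
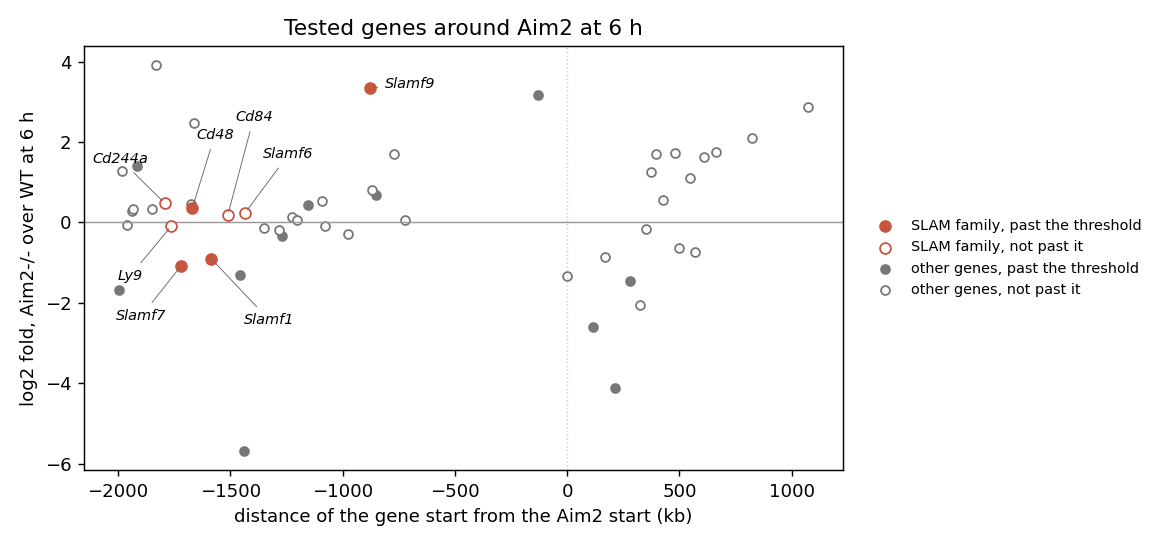
Fitted log2 fold of Aim2-/- over WT at 6 h (vertical axis) of the 52 tested genes within 2 Mb of Aim2 against the distance of their start from the Aim2 start in kb (negative before it), SLAM genes in red and other genes in grey, filled where the adjusted p was under 0.05. Higher and lower genes lay side by side in the SLAM cluster, with Slamf7 at -1.08 and Cd48 at 0.36, and Slamf9 stood at 3.35 (10 counts in WT and 107 in Aim2-/- libraries).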

How the data were processed

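The authors deposited raw counts per gene for 24 libraries (stranded mRNA kit, per the study's methods; reads aligned and counted with STAR against GRCm38, per the labels' processing notes). Of 54446 Ensembl IDs, 54409 had a GENCODE vM21 annotation. The deposited counts were used as they stand, with 3 counts as the floor. Genes with enough counts (filterByExpr, minimum count 10) were fitted with TMM scaling and edgeR's quasi-likelihood test on 8 group means, with Benjamini-Hochberg adjustment at 0.05 over the tested genes, of which there were 15325, and 17163 after summing the 4 libraries of a mouse. The procedure was tested on simulated data, in which libraries were independent. That test had no mouse effect, so it says nothing about libraries of a mouse that deviate together. CPM values use TMM-scaled library sizes. The 4 libraries of a mouse come from 1 animal and deviated together (36 pairs, r 0.139 to 0.567, against -0.432 to 0.0742 for 72 pairs of different mice), so fits with the mouse as a block are given. For genotype contrasts that block is the mouse number, which does not pair animals across genotypes.

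The members and gene lists were chosen with earlier results of these data known. Values are given for all members. Of the partners, those called between the genotypes and up to 3 with the largest fold in each direction among those past the threshold for each stimulation comparison were named, and of the genes within 2 Mb of Aim2 those past it at 2 or more times. R 4.3.3, edgeR 4.0.16, limma 3.58.1 and DESeq2 1.42.0 were used. Promoters are from a RefSeq table holding 7 of the 9 members. Protein sequences were not used here. The alternatives were other scalings and filters, DESeq2, limma-voom, fits on only the libraries compared, the block, and leaving out each mouse. The study describes sex- and age-matched, cohoused mice in its general methods.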

Additional observations from a re-analysis of the deposited data

Results flagged for a closer look

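Slamf9 at 24 h against 0 h drew attention because the counts of the genotypes moved in opposite directions. In WT mice 1, 3 and 4 it went from 0, 0 and 0 counts to 5, 2 and 5, and in Aim2-/- mice 1, 2 and 4 from 27, 27 and 20 counts to 15, 16 and 7, so that every Aim2-/- mouse was lower at 24 h. The WT counts started from 0, that of WT 3 ended under the floor of 3 counts and the WT mean at 24 h was 1.34 times that floor, so the direction in WT cells rests on a few counts. The fitted interaction was -6.05 on the log2 scale (edgeR's quasi-likelihood test, adjusted p = 0.0992), with -6.09 (adjusted p = 0.0206) when the mouse was a block and -5.87 (adjusted p = 0.134) without the mouse labelled WT 1. The adjusted p ran from 0.0206 to 0.613 over the alternatives. The size of this value depends on the small number added to counts of 0 and is no bound on the difference.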

How the results depend on the processing

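Of 126 pairs of a member and a comparison, 39 passed the threshold in the reported fits and 64 passed in none, with or without the 14 alternatives. The 39 gave 488 values under the alternatives that kept direction and call and 49 that kept direction but lost the call, with 0 changes of direction. The counts of members called fell from 5 to between 2 and 5 in WT at 3 h, and to between 3 and 5 in Aim2-/- at 3 h, when single mice were left out. Between the genotypes the count of 1 at 0 h was 3 with no filter on low counts, 0 with a minimum mean of 1 CPM, which removed Slamf9, and 1 to 2 without single mice. At 3 h the count of 1 was 2 with no filter, 0 with the minimum mean and with only the libraries compared, and 0 to 2 without single mice. At 6 h the count of 5 was 1 without WT 4, 3 without WT 3, Aim2-/- 1 or Aim2-/- 4, and 1 to 6 over all mice left out. The counts of 0 reached 1 with DESeq2 and 2 with no filter at 24 h, 3 and 2 for the interaction at 6 h, 1 and 2 for that at 24 h, and 4 and 3 for the summed libraries, with 0 to 1, 0 to 1, 0 to 1 and 0 to 4 without single mice. The cause was not tested. Changes of direction touched values outside these calls. Among the pairs that passed only under an alternative, they touched Slamf6 in WT at 24 h (reported as -0.05, 0.0022 with limma-voom, -0.32 to 0.40 without single mice) and Cd84 between the genotypes at 6 h (reported as 0.18, -0.043 to 0.51 without single mice). Of the 64 pairs that passed in none, 29 changed direction under an alternative. The largest reported log2 fold among these 29 was 0.76 in size.

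With the mouse as a block, the interaction counts were 3 at 6 h and 2 at 24 h, and Slamf9 in Aim2-/- cells at 24 h passed (log2 fold -0.95, adjusted p = 0.0438; 0.105 without it). Beside the values given in the report the block changed no other call of stimulation or interaction. With the mouse number as a block, which does not pair animals of different genotypes (r -0.165 to 0.300 over 32 pairs), the genotype count was 2 at 0 h (Slamf9, and Cd244a, adjusted p = 0.002) and 2 at 24 h (Slamf7, adjusted p = 0.0173, and Slamf6, adjusted p = 0.0257), where 23.6% and 21.1% of all genes passed, and all genes called at 6 h rose from 2421 to 5516. Over all genes, interaction calls at 6 h were 4 as reported, 304 with DESeq2, 147 with no filter, 2 with limma-voom and 717 with the mouse as a block, and summed calls were 2, 1725 with DESeq2 and 542 with no filter. Depth limited Slamf9, Slamf8, Sh2d1b1 and Cd244a, with 0 to 113 counts in a library.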
